A study of Mus musculus with 12 samples.

Results

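The transcripts examined here are those of 39 interferon-induced genes in the tibialis anterior, a hindlimb muscle, sequenced at an age of 4 months in male mice, 6 of the strain C57Bl/6 (WT) and 6 of the strain mdx/mTR. The 39 genes were taken from the count table by their symbols, and all 39 were found among its 24421 entries. All 39 passed the filter on low counts, which kept 13937 genes. In mdx mice the Dmd gene, which encodes the membrane-linked protein dystrophin, is mutated, and mTR stands for telomerase RNA (Terc in the table). The WT mice carry neither allele, and no strain with only 1 of them was sequenced in the libraries used here, so the parts of the 2 alleles in any difference cannot be told apart. The labels give no telomerase generation and do not say in words that each library came from a different mouse, so p-values measure the spread between these 12 libraries. Libraries are named by their group and number (WT6, mdx/mTR5).

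Interferons are secreted proteins that cells release on sensing foreign or misplaced nucleic acid or on activation of lymphocytes. Type I interferons bind the receptor of Ifnar1 and Ifnar2, interferon gamma binds that of Ifngr1 and Ifngr2, and the kinases Jak1, Jak2 and Tyk2 then phosphorylate STAT proteins. After type I interferon, a complex that includes Stat2 and Irf9 binds the interferon-stimulated response element (ISRE), whereas interferon gamma acts through the gamma-activated site (GAS). The genes switched on in this way encode transcription factors, GTPases that attack vacuoles holding parasites or bacteria, and proteins that block viral replication.

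Library totals ran from 35136327 to 60330410 counts, and levels are given as CPM, counts relative to a library's scaled total. A count of 0 leaves room for up to 3 counts, which is 0.0460 to 0.0837 CPM; this allows for counting error alone. Dmd ranged from 228 to 244 CPM in WT and from 35.2 to 56.4 CPM in mdx/mTR without overlap, so every library matched its mdx label. Terc had 2 counts in all 12 libraries together, so it checks nothing. Each of 8 macrophage markers rose in mdx/mTR (adjusted p below 0.05), and their summed level was 88.1 to 133 CPM in WT1 to WT5, 152 CPM in WT6 and 258 to 722 CPM in mdx/mTR, with mdx/mTR5 at 722 and no other library above 490 CPM. All 5 fibroblast markers rose as well, from summed levels of 840 to 1558 CPM in WT to 2160 to 4358 CPM in mdx/mTR. In whole muscle, fewer cells of a type and less RNA per cell cannot be told apart.

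Across all 12 libraries, 6 of the 39 interferon-induced genes rose in mdx/mTR and 6 fell, where rose and fell mean an adjusted p below 0.05 in edgeR's quasi-likelihood test over all 13937 genes. Below, a gene passes when it meets that threshold in edgeR, and the 2 fits are those with all 12 libraries and with WT6 left out. Among all genes tested, 25.0% rose and 23.4% fell. In either direction 30.8% of the 39 genes passed the threshold, against 48.3% of all genes. The median log2 fold change of the 39 was 0.02, beside 0.01 for all genes. The 6 that rose were the transcription factors Irf8 and Irf9, the GTPase Irgm2, and the antiviral genes Mx1, Oas1a and Oas2. The 6 that fell were the guanylate-binding proteins Gbp4, Gbp5, Gbp6 and Gbp9, the GTPase Tgtp1 and Cd274, which encodes the immune checkpoint ligand PD-L1. The count of rises was 3 when WT1, WT3, WT4, WT5 or mdx/mTR5 was left out, and the count of falls was 3 without mdx/mTR2 or mdx/mTR3 and 2 without mdx/mTR4. With scaling by library totals alone the split was 7 rises and 2 falls, beside 40.1% and 11.2% of all genes. Irf9, Gbp6, Mx1, Oas1a and Oas2 kept their call under every other scaling, filter and tool run in which they were tested, and the other 7 lost it under at least 1. For none of the 39 did the 6 mdx/mTR libraries all lie outside the range of the 6 WT libraries, a separation that 25.2% of all genes showed (12.6% with mdx/mTR above WT and 12.6% with mdx/mTR below).

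The library WT6 stood apart from the other WT libraries in these genes. It held the highest WT level for 36 of the 39, compared with 12.4% of all genes, and the exceptions were Mx2, Ddx58 and Ifi35. For 12 of the 39 its level was at least 2-fold above that of the highest other WT library, which only 0.237% of all genes showed. Those 12 genes were Gbp2, Gbp3, Gbp4, Gbp5, Gbp7, Iigp1, Igtp, Ifi47, Tgtp1, Tgtp2, Gm12250 and Cd274, and they made up 36.4% of the 33 genes in the table that met this condition. WT6 was known to stand high in such genes when the 39 were chosen, so these shares are a description and not a test. The median ratio of WT6 to the mean of WT1 to WT5 was 2.15 over the 39 genes, 4.19 over 7 guanylate-binding proteins and 5.35 over 8 immunity-related GTPases. The library mdx/mTR5, which had the highest macrophage sum, also had the highest mdx/mTR level for 29 of the 39, beside 29.0% of all genes.

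**Figure D1:**
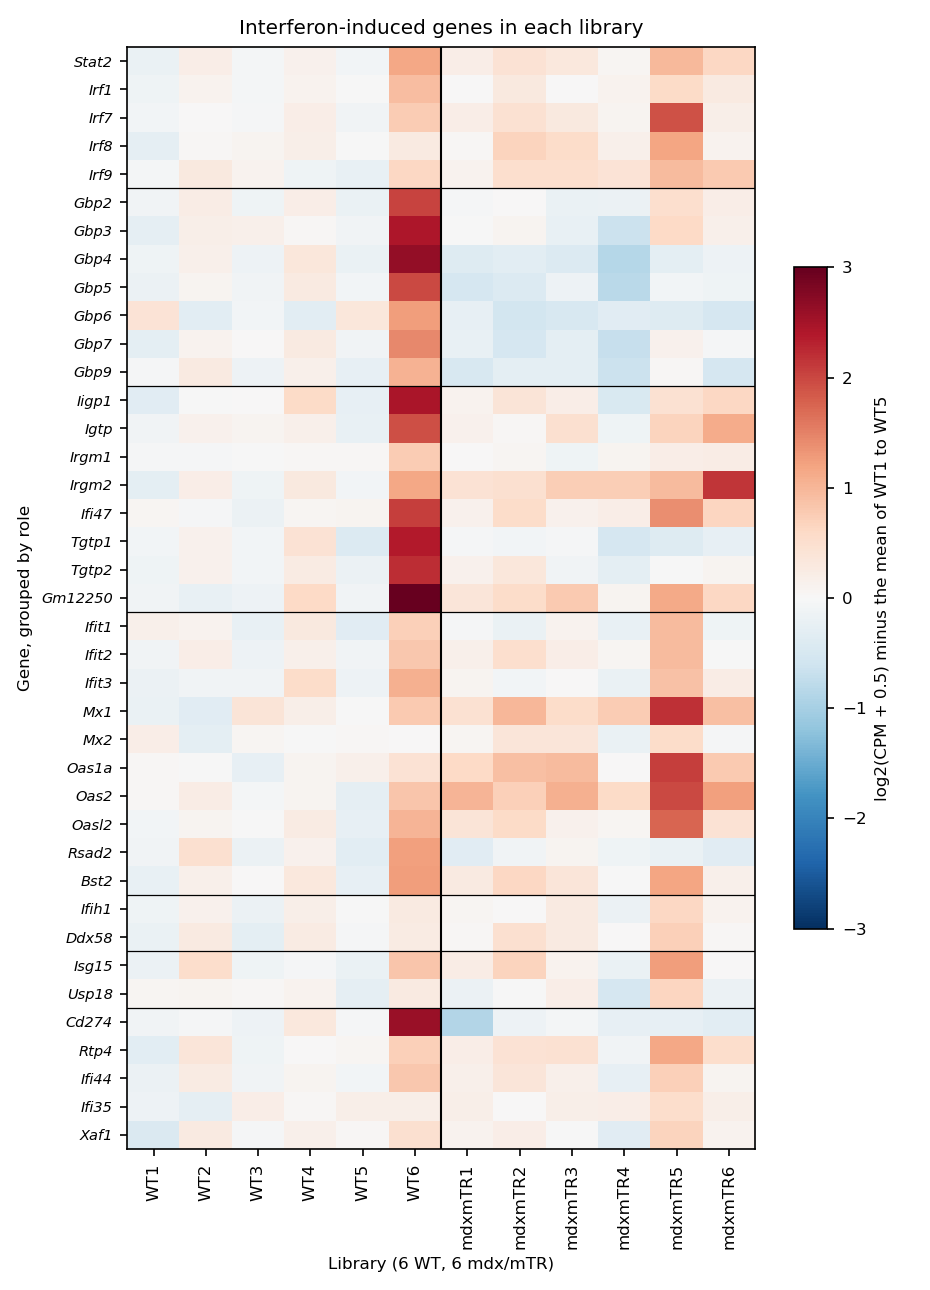
Heat map of the 39 interferon-induced genes (vertical axis) in the 12 libraries (horizontal axis). Colour gives log2(CPM + 0.5) minus the mean of WT1 to WT5; the WT6 column is raised for most genes, with the strongest colours among the guanylate-binding proteins, the immunity-related GTPases and Cd274, and mdx/mTR5 is the highest mdx/mTR library for 29 of 39 genes.

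With WT6 left out, 9 of the 39 genes rose in mdx/mTR and 3 fell, beside 22.9% and 21.4% of all 14059 genes then tested (44.3% in either direction). The median log2 fold change of the 39 moved to 0.23 while that of all genes was 0.01, and positive values went from 20 to 31 of 39. The 6 genes that had risen across all 12 libraries also rose without WT6. Stat2, Ifi47 and Gm12250 joined them. Gbp4, Gbp6 and Gbp9 fell in both fits, and the calls of Gbp5, Tgtp1 and Cd274 were lost. In this comparison 4 genes, Irgm2, Ifi47, Mx1 and Oas2, had every mdx/mTR library above WT1 to WT5, and 0 had every one below. Of all genes, 26.8% had groups that did not overlap, counting both directions. With mdx/mTR5 left out as well, 8 genes rose and 5 fell, beside 20.8% and 20.4% of all genes (41.2% in either direction), and the median was 0.14.

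**Figure D2:**
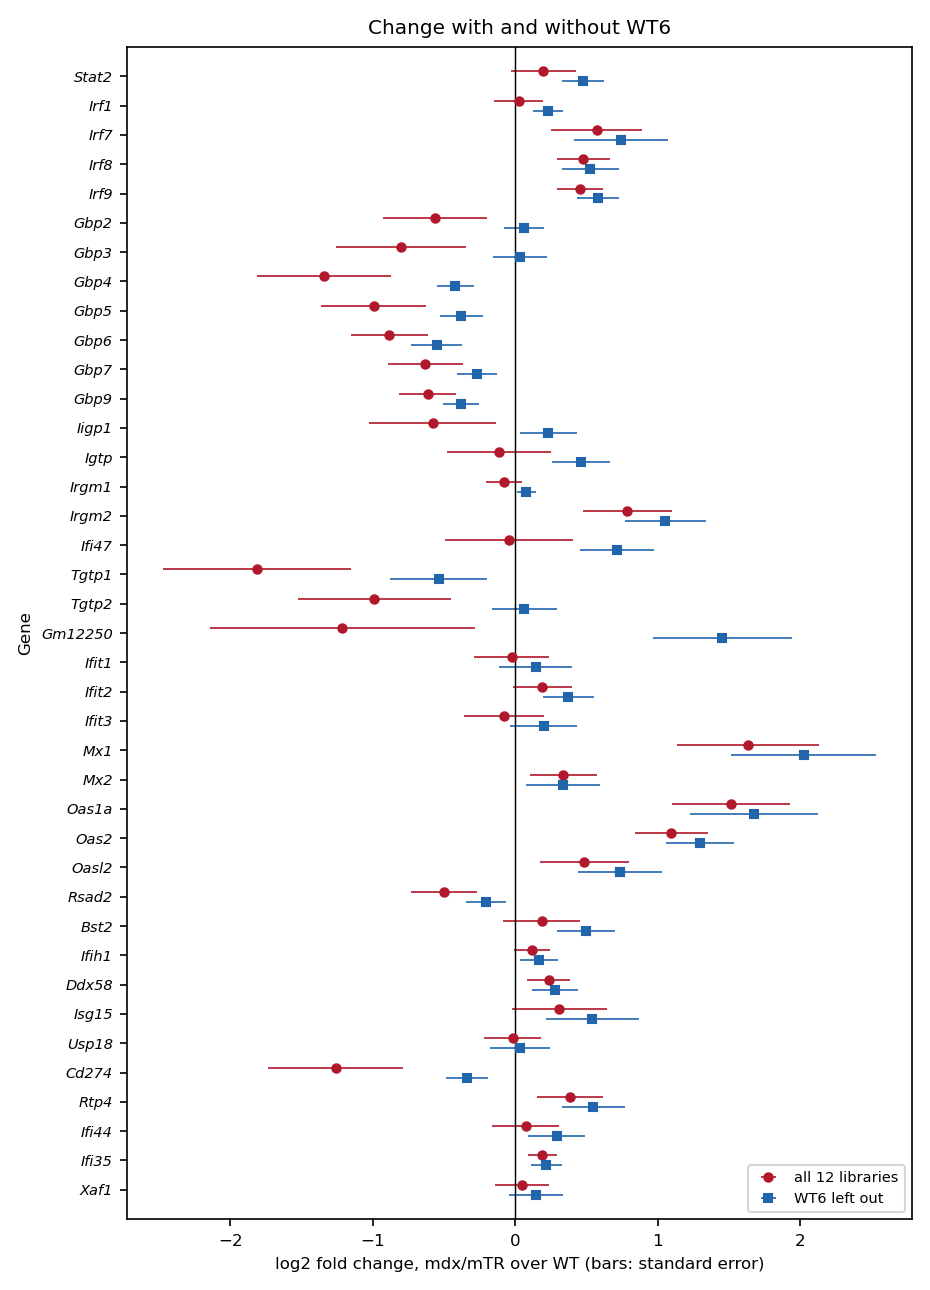
Log2 fold change, mdx/mTR over WT (horizontal axis), of each of the 39 genes (vertical axis). Circles are the fit with all 12 libraries, squares the fit with WT6 left out, and bars are standard errors. A square to the right of its circle has a more positive value without WT6, by most for Gm12250 (from -1.21 to 1.45).

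The ligands themselves were at or near 0. Of the 21 interferon genes in the table, all had 0 counts in every WT library, WT6 included, and 15 had 0 in all 12 libraries. Ifng, which encodes interferon gamma, had 3 counts in mdx/mTR2, 2 in mdx/mTR5, 4 in mdx/mTR6 and 0 in the other 9 libraries. At this depth the level of Ifng was therefore not measurable in either group, and no difference between WT6 and the other WT libraries in it was detectable.

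Among 8 tested genes of the receptors and their kinases, 4 rose and 3 fell, beside 25.0% and 23.4% of all genes. Ifngr1, the ligand-binding chain of the interferon gamma receptor, was at 29.4, 37.9 and 44.4 CPM (lowest, median and highest) in WT and at 43.8, 50.01 and 52.3 CPM in mdx/mTR. The groups overlapped at their edges, and the log2 fold change was 0.39 ± 0.09 (SE; edgeR, adjusted p 0.00262). Ifngr2, the other chain of that receptor, went the opposite way, from 75.9, 78.5 and 81.8 CPM in WT to 64.3, 69.2 and 74.6 CPM in mdx/mTR without overlap (log2 fold change -0.19 ± 0.04, adjusted p 0.00239). That fall was -0.03 (adjusted p 0.56) when only library totals were used for scaling, a scaling that moved the median of all genes from 0.01 to 0.17. The type I receptor genes Ifnar1 and Ifnar2 rose, with log2 fold changes of 0.34 ± 0.10 (adjusted p 0.0103) and 0.49 ± 0.13 (adjusted p 0.00654). Il10rb, a chain shared by the receptors of interferon lambda and interleukin 10, had 0.43 ± 0.16 (adjusted p 0.0401), and the call was lost without WT6 (0.39, adjusted p 0.0828) or without WT1, WT3, WT4, WT5, mdx/mTR2, mdx/mTR3, mdx/mTR4 or mdx/mTR5.

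The kinases Jak1 and Jak2 were lower in every mdx/mTR library than in any WT library at the scaling used for CPM. Relative to library totals alone the groups overlapped for both. There Jak1 had 10098 of 40494980 counts in mdx/mTR5 and a smaller share, 9387 of 38716842, in WT1. Jak2 had 3356 of 46700042 counts in mdx/mTR4 and a smaller share, 2630 of 36903560, in WT2. Jak1 was at 252, 263 and 284 CPM in WT and the mdx/mTR libraries were at 201, 211 and 230 CPM (log2 fold change -0.32 ± 0.05, edgeR adjusted p 0.000146). Jak2 fell further, from 73.4, 97.6 and 114 CPM to 57.6, 59.5 and 68.6 CPM (log2 fold change -0.66 ± 0.09, adjusted p 6.61e-05). Both falls passed the threshold in each fit that left out 1 library. Tyk2, the kinase that pairs with Jak1 at the type I receptor, had a log2 fold change of 0.18 ± 0.07 (adjusted p 0.0538) and passed the threshold when WT6, mdx/mTR1 or mdx/mTR6 was left out.

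Stat3, which transmits interleukin 6 family signals, was at 78.0, 81.6 and 90.5 CPM in WT and 89.0, 115 and 156 CPM in mdx/mTR, with an overlap only at WT6. It rose by 0.51 ± 0.11 on the log2 scale (adjusted p 0.00154). Of 12 negative regulators, 5 rose and 3 fell, beside 25.0% and 23.4% of all genes. Socs3 is named for its rise, among the largest of that list, and Socs1 for its role. Socs3, an inhibitor of cytokine receptor signalling that Stat3 induces, was at 3.82, 4.67 and 7.75 CPM in WT and 8.36, 13.3 and 44.7 CPM in mdx/mTR, with mdx/mTR6 highest and no overlap. Its log2 fold change was 1.89 ± 0.38 (adjusted p 0.00112). Socs1, which inhibits Jak kinases and is induced by interferon gamma, was at 0.547 CPM in WT6, within the 0.416 to 1.09 CPM of WT1 to WT5, and rose by 0.94 ± 0.26 (adjusted p 0.00946) to a median of 1.14 CPM in mdx/mTR.

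**Figure D3:**
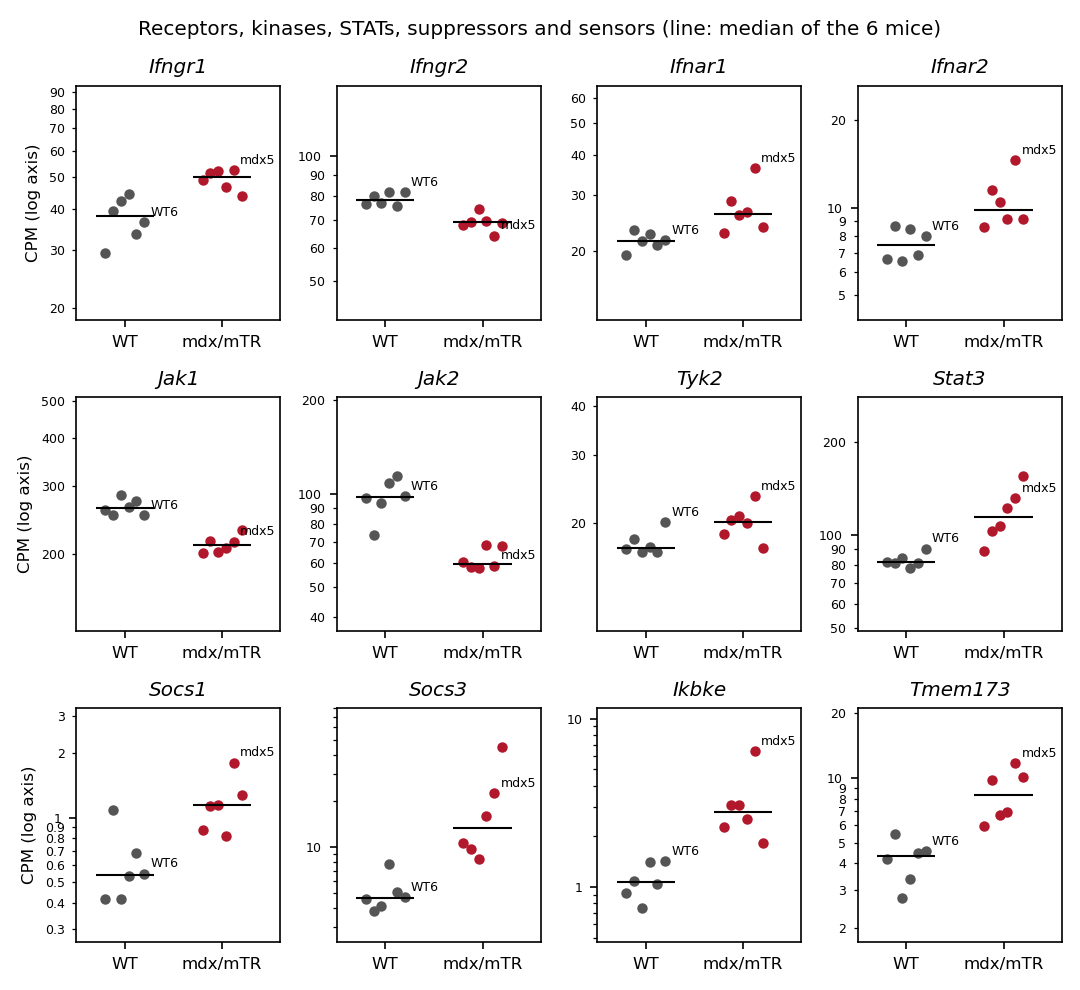
Levels (CPM, log axis) of 12 genes of interferon reception, signal transduction and nucleic acid sensing in the WT and mdx/mTR libraries; each point is a library and the line is the group's median. At the scaling used for CPM, Jak1, Jak2 and Ifngr2 are lower and Socs3, Ikbke and Tmem173 higher in every mdx/mTR library than in any WT library.

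Upstream of the ligands, 7 of 16 tested genes of nucleic acid sensing rose and 1 fell, beside 25.0% and 23.4% of all genes. In either direction that is 8 of 16, near the 48.3% of all genes. The genes named next were picked by their values, as the largest rises and the 1 fall. Tmem173, which encodes the adaptor STING, was at 2.75, 4.33 and 5.498 CPM in WT and 5.98, 8.32 and 11.7 CPM in mdx/mTR without overlap (log2 fold change 1.04 ± 0.19, edgeR adjusted p 0.000569). Mb21d1, the DNA sensor cGAS that makes the messenger for STING, rose by 1.24 ± 0.27 (adjusted p 0.00196), and Ikbke, a kinase that activates interferon regulatory factors, by 1.53 ± 0.29 (adjusted p 0.000688). Mavs, the mitochondrial adaptor of the RNA sensors, fell by 0.31 on the log2 scale (SE 0.06, adjusted p 0.000978). The part in these rises of the macrophage markers, which were higher in every mdx/mTR library, was not tested.

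Of the 5 interferon-induced transcription factors, Irf8 and Irf9 rose across all 12 libraries and Stat2 joined them without WT6 (medians of the log2 fold changes 0.46 and 0.53). Among all genes tested, 25.0% rose with WT6 and 22.9% without it. Irf9, the DNA-binding partner of Stat2, was at 7.05 to 10.2 CPM in WT1 to WT5, 13.0 CPM in WT6, and 8.99, 11.9 and 16.5 CPM in mdx/mTR. The groups overlapped, and the log2 fold change was 0.46 ± 0.16 (adjusted p 0.0321), or 0.58 ± 0.15 (adjusted p 0.0064) without WT6. Leaving out WT1, WT3, WT4, WT5, mdx/mTR5 or mdx/mTR6 from the 12 libraries raised its adjusted p above the threshold, to at most 0.0745. Irf8, a factor of macrophage and dendritic cell development, ranged from 5.69 to 8.48 CPM in WT and from 7.14 to 16.3 CPM in mdx/mTR, with mdx/mTR5 highest. The rise of 0.48 ± 0.18 on the log2 scale (adjusted p 0.0452) lost the call in 8 of the 12 fits that left out 1 library: those without WT1, WT2, WT3, WT4, WT5, mdx/mTR2, mdx/mTR3 or mdx/mTR5.

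Stat2 was at 8.86 to 11.8 CPM in WT1 to WT5 and 23.5 CPM in WT6, above the 10.6, 13.4 and 20.3 CPM of mdx/mTR. WT6 thus exceeded every mdx/mTR library, and the log2 fold change was 0.20 ± 0.23 (adjusted p 0.502) with it and 0.48 ± 0.15 (adjusted p 0.0203) without it. Irf1, a factor induced through GAS sites, was at 10.1 to 12.03 CPM in WT1 to WT5, 21.6 CPM in WT6 and 11.4 to 16.9 CPM in mdx/mTR, and passed in neither fit (0.02, adjusted p 0.915, and 0.23, adjusted p 0.0885). Irf7, which amplifies type I interferon production, was at 3.89 to 7.49 CPM in WT and reached 17.2 CPM in mdx/mTR5, with no other mdx/mTR library above 5.95 CPM (log2 fold change 0.57 ± 0.32, adjusted p 0.156). For Irf7 it was 0.74 ± 0.33 (adjusted p 0.0815) without WT6, and 0.27 (adjusted p 0.0504) with mdx/mTR5 also left out. Without WT6, DESeq2 called Irf7 as higher (adjusted p 0.0392). In edgeR with library totals alone, Irf7 (adjusted p 0.0485) and Irf1 (adjusted p 0.0259) were also called as higher without WT6, beside 38.0% of all genes.

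The 7 guanylate-binding proteins, GTPases that coat and break vacuoles of intracellular pathogens, had the lowest median log2 fold change of the roles among the 39 genes. All 7 had negative log2 fold changes across the 12 libraries (median -0.80) and 4 fell, beside 23.4% of all genes. Without WT6 the median was -0.38 and 3 fell, beside 21.4% of all genes. Gbp4 was at 11.96 to 17.6 CPM in WT1 to WT5 and 89.0 CPM in WT6, and at 7.46, 10.7 and 12.4 CPM in mdx/mTR. Even with WT6 left out the mdx/mTR libraries lay mostly below WT, overlapping only between 11.96 and 12.4 CPM. Its log2 fold change was -1.34 ± 0.47 (adjusted p 0.0302) with WT6 and -0.42 ± 0.13 (adjusted p 0.0199) without it. Leaving out mdx/mTR3 or mdx/mTR4 ended the call with WT6 present.

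Gbp9 was at 12.9 to 18.5 CPM in WT1 to WT5, 32.1 CPM in WT6 and 9.64, 11.6 and 15.7 CPM in mdx/mTR. The log2 fold change of the gene was -0.61 ± 0.20 (adjusted p 0.0201), and -0.38 ± 0.13 (adjusted p 0.0269) without WT6. Gbp6 was lower in level, at 1.93 to 3.53 CPM in WT1 to WT5, 6.70 CPM in WT6 and 1.58, 1.75 and 2.07 CPM in mdx/mTR. Its log2 fold changes were -0.88 ± 0.27 (adjusted p 0.0148) and -0.55 ± 0.18 (adjusted p 0.0230). The falls of Gbp6 and Gbp9 passed in each of the 12 fits that left out 1 library. Of the 50-base stretches of the longest coding transcript of Gbp6, 90.2% also occur in a transcript of another gene, chiefly Gm43302, so its count is uncertain. With WT6 left out and only library totals for scaling, the values were -0.26 for Gbp4, -0.39 for Gbp6 and -0.21 for Gbp9, none of them past the threshold, beside a median of all genes of 0.18.

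Gbp5, which takes part in inflammasome activation, was at 4.67 to 6.55 CPM in WT1 to WT5, 22.4 CPM in WT6 and 2.80, 4.28 and 5.005 CPM in mdx/mTR. It fell with WT6 (-0.99 ± 0.37, adjusted p 0.0382) and was at -0.38 ± 0.15 (adjusted p 0.0577) without it. The fits that left out mdx/mTR1, mdx/mTR2, mdx/mTR3 or mdx/mTR4 also lost the call. Gbp2 and Gbp3 had WT6 levels of 34.4 and 33.1 CPM, while the other 11 libraries stayed between 6.89 and 11.6 CPM for Gbp2 and between 3.51 and 8.97 CPM for Gbp3. Their log2 fold changes were -0.56 and -0.80 with WT6, and 0.06 (adjusted p 0.748) and 0.04 (adjusted p 0.89) without it. Gbp7 was at 14.998 to 22.2 CPM in WT1 to WT5, 50.8 CPM in WT6 and 11.2 to 19.997 CPM in mdx/mTR, and passed in neither fit (adjusted p 0.0617 and 0.146), though it did without WT1, WT5 or mdx/mTR5 (lowest adjusted p 0.0363).

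These genes lie in 2 clusters of the mouse genome (RefSeq gene models, GRCm38.p6). Gbp5, Gbp7, Gbp3 and Gbp2 lie on chromosome 3 between 142496934 and 142638008, and Gbp9, Gbp4 and Gbp6 on chromosome 5 between 105076464 and 105295871. The 3 genes that fell in both edgeR fits lie in the chromosome 5 cluster, a grouping looked at after their values were known. On chromosome 3, Gbp5 also fell without WT6 in DESeq2 (-0.39, adjusted p 0.0351) and, in edgeR with mdx/mTR5 also left out, Gbp5 (-0.44, adjusted p 0.0325) and Gbp7 (-0.36, adjusted p 0.0449) fell. Gbp8, in the chromosome 5 cluster and below the filter, was at 0 to 0.139 CPM in WT1 to WT5, 0.684 CPM in WT6 and 0.0547 to 0.362 CPM in mdx/mTR. Gbp10, a neighbour in that cluster outside the 39 genes, had a log2 fold change of -0.70 ± 0.26 (adjusted p 0.0391), which kept the call only in the fits without WT2 or mdx/mTR1 among the 12 that left out 1 library. Its WT6 level of 3.09 CPM lay within the 1.93 to 4.06 CPM of WT1 to WT5.

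The immunity-related GTPases, 8 genes that act on the membranes of pathogen vacuoles, had the largest shift in their median when WT6 was removed. With all 12 libraries the median log2 fold change was -0.34 and 1 of the 8 was positive; without WT6 the median was 0.35 and 7 were positive. With WT6 present and scaling by library totals alone, Igtp (0.033), Irgm1 (0.076) and Ifi47 (0.13) changed sign but stayed below the median of all genes under that scaling, 0.17. Irgm2 rose in both fits. It was at 14.9 to 22.7 CPM in WT1 to WT5, 41.5 CPM in WT6, and 25.1, 31.2 and 82.6 CPM in mdx/mTR, where mdx/mTR6 was highest and the other 5 reached at most 36.2 CPM. WT1 to WT5 all lay below mdx/mTR while WT6 lay above 5 of its 6 libraries. The log2 fold change was 0.79 ± 0.31 (adjusted p 0.04999, just under the threshold) with WT6 and 1.05 ± 0.29 (adjusted p 0.00959) without it. With WT6 present, leaving out any of WT1 to WT5, or mdx/mTR3, mdx/mTR4, mdx/mTR5 or mdx/mTR6, ended the call.

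Gm12250, a further member of this GTPase family, showed the widest gap between WT6 and the rest. It had 3 to 20 counts in WT1 to WT5 and 246 counts in WT6, which is 0.0837 to 0.530 CPM against 6.73 CPM, or 33.8 times the mean of the other 5. The mdx/mTR libraries were at 0.225, 0.531 and 1.001 CPM, all above 4 of the WT libraries, with WT4 (0.530 CPM) inside their range and WT6 far above it. The log2 fold change was -1.21 ± 0.93 (adjusted p 0.3) with WT6 and 1.45 ± 0.49 (adjusted p 0.0283) without it, and 1.21 (adjusted p 0.0565) with mdx/mTR5 also left out. Ifi47 was at 1.42 to 1.78 CPM in WT1 to WT5, 8.53 CPM in WT6 and 1.83, 2.31 and 5.18 CPM in mdx/mTR, with mdx/mTR5 highest. The log2 fold change, -0.04 ± 0.45 (adjusted p 0.947) with WT6, was 0.72 ± 0.26 (adjusted p 0.0387) without WT6.

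Igtp and Iigp1 reached 39.2 and 52.9 CPM in WT6, above all other libraries. Igtp was at 8.38 to 11.01 CPM in WT1 to WT5 and 9.09, 12.4 and 22.2 CPM in mdx/mTR (-0.11, adjusted p 0.82, with WT6; 0.46 ± 0.20, adjusted p 0.0817, without). Iigp1 was at 7.30 to 14.2 CPM in WT1 to WT5 and 6.68 to 14.6 CPM in mdx/mTR and passed in neither fit (adjusted p 0.304 with WT6 and 0.366 without). Irgm1, which regulates the other members and autophagy, varied little outside WT6 (33.1 CPM), at 19.0 to 20.1 CPM in WT1 to WT5 and 17.7 to 22.9 CPM in mdx/mTR. Without WT6, edgeR with library totals alone called Igtp (adjusted p 0.0275) and Irgm1 (adjusted p 0.0273) as higher, beside 38.0% of all genes. Tgtp1 was at 0.209 to 0.769 CPM in WT1 to WT5, 4.38 CPM in WT6 and 0.163, 0.339 and 0.418 CPM in mdx/mTR. It fell with WT6 (-1.81 ± 0.66, adjusted p 0.0357) and was at -0.54 ± 0.34 (adjusted p 0.215) without it, and the fits without mdx/mTR2, mdx/mTR4, mdx/mTR5 or mdx/mTR6 lost the call too. Its near copy Tgtp2 was at 4.70 CPM in WT6 and 0.409 to 0.905 CPM in the other 11 libraries. Of the 50-base stretches of the longest coding transcript, 91.4% in Tgtp1 and 90.6% in Tgtp2 occur in another gene's transcript, so reads could be split between the pair.

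The sequence before the start of these genes was searched for both interferon motifs. RefSeq promoters (GRCm38.p6) matched 30 of the 39 genes with 35 promoters, and the 250 bases before each start were read on both strands for GAAA, any 2 bases and GAAA as the ISRE and for TTCNNNGAA as the GAS. An ISRE was found in 48.57% of the 35 promoters and in 2.98% of all 32851 promoters, and a GAS in 34.29% and 7.02%. In 1 promoter, that of Bst2, an ISRE overlapped a GAS. The 120 bases before the start are shown for 4 GTPases, where a GAS starts 11 bases (Igtp, Irgm2, Tgtp1) or 15 bases (Gm12250) before an ISRE, and for Gbp2 and Ifit1, with an ISRE and no GAS in the stretch. Motif letters are in capitals; TTTC, any 2 bases and TTTC is the ISRE on the other strand. The positions are chr11:58183723-58183842 (plus strand) for Gm12250, chr11:58199436-58199555 (plus) for Igtp, chr11:58214857-58214976 (plus) for Irgm2, chr11:48992247-48992366 (minus) for Tgtp1, chr3:142620543-142620662 (plus) for Gbp2 and chr19:34640769-34640888 (plus) for Ifit1, each read 5′ to 3′ on the gene's strand.
Gm12250: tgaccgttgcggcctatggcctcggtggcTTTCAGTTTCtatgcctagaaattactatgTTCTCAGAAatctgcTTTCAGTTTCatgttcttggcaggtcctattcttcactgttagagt
Igtp: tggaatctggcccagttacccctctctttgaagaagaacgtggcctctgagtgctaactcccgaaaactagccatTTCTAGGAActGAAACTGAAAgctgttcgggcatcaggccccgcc
Irgm2: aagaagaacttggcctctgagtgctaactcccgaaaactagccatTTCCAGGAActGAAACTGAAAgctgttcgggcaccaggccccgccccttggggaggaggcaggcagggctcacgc
Tgtp1: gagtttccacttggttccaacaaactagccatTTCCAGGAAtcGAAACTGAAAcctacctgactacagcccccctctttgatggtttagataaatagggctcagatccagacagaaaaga
Gbp2: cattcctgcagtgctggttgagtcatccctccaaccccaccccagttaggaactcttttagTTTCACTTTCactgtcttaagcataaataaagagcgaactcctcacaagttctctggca
Ifit1: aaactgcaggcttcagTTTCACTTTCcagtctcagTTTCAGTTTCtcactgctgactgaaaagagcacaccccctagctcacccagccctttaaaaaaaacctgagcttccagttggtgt

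The stretches of Igtp and Irgm2 carry the same arrangement, with the GAS starting 45 bases before the start of Igtp and 75 bases before that of Irgm2. Tgtp2 has the 11-base arrangement as well, starting 81 bases before its start. Of these genes, Gm12250, Igtp, Tgtp1 and Tgtp2 were each more than 3-fold higher in WT6 than in the mean of WT1 to WT5 (33.8, 3.94, 9.57 and 7.52 times) and Irgm2 2.22 times. Ifit1, which holds 2 ISREs in the stretch shown, was 1.75 times as high in WT6, and Gbp2, with 1 ISRE, 4.25 times. Genes without either motif in the 250 bases could be as high, with Ifi47 at 5.17 and Cd274 at 6.35 times, and Irf8, with 2 GAS matches before 1 of its starts, was at 1.22 times. A motif match is a description of the letters and not evidence of binding.

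Among 10 antiviral effectors, 3 rose (Oas2, Oas1a and Mx1) with and without WT6, a share near the 25.0% and 22.9% of all genes that rose. The median log2 fold change was 0.26 with it and 0.43 without it. Oas2, which makes the 2-5A messenger that activates RNase L, was at 2.35 to 3.49 CPM in WT1 to WT5, 5.61 CPM in WT6 and 4.62, 6.58 and 13.1 CPM in mdx/mTR. Each mdx/mTR library lay above WT1 to WT5, and WT6 lay within the mdx/mTR range. The level in mdx/mTR was 2.14-fold that of WT (log2 fold change 1.10 ± 0.26, edgeR adjusted p 0.00317), 1.30 ± 0.24 (adjusted p 0.00101) on the log2 scale without WT6 and 1.04 (adjusted p 0.000183) with mdx/mTR5 also left out.

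Oas1a, of the same enzyme family, was at 0.277 to 0.522 CPM in WT1 to WT5, 0.738 CPM in WT6 and 0.429, 1.16 and 3.39 CPM in mdx/mTR. The mdx/mTR5 library was highest and no other mdx/mTR library exceeded 1.28 CPM. Its log2 fold change was 1.52 ± 0.41 (adjusted p 0.00817), and 57.6% of the 50-base stretches of its longest coding transcript occur in a transcript of another gene, chiefly Oas1g. Mx1, a dynamin-like GTPase that traps viral nucleoproteins, was low in WT, at 0.112 to 0.499 CPM in WT1 to WT5 and 0.820 CPM in WT6. In mdx/mTR it was at 0.558, 0.865 and 3.02 CPM, again highest in mdx/mTR5 and at most 1.03 CPM elsewhere. The log2 fold change of the gene was 1.63 ± 0.50 (adjusted p 0.0150), and 1.48 (adjusted p 0.00411) with WT6 and mdx/mTR5 left out. The calls of Oas2, Oas1a and Mx1 held in each of the 12 fits that left out 1 library. The macrophage sums of the mdx/mTR libraries other than mdx/mTR5, 258 to 490 CPM, were also above those of every WT library, and the part of macrophage content in these rises was not tested.

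**Figure D4:**
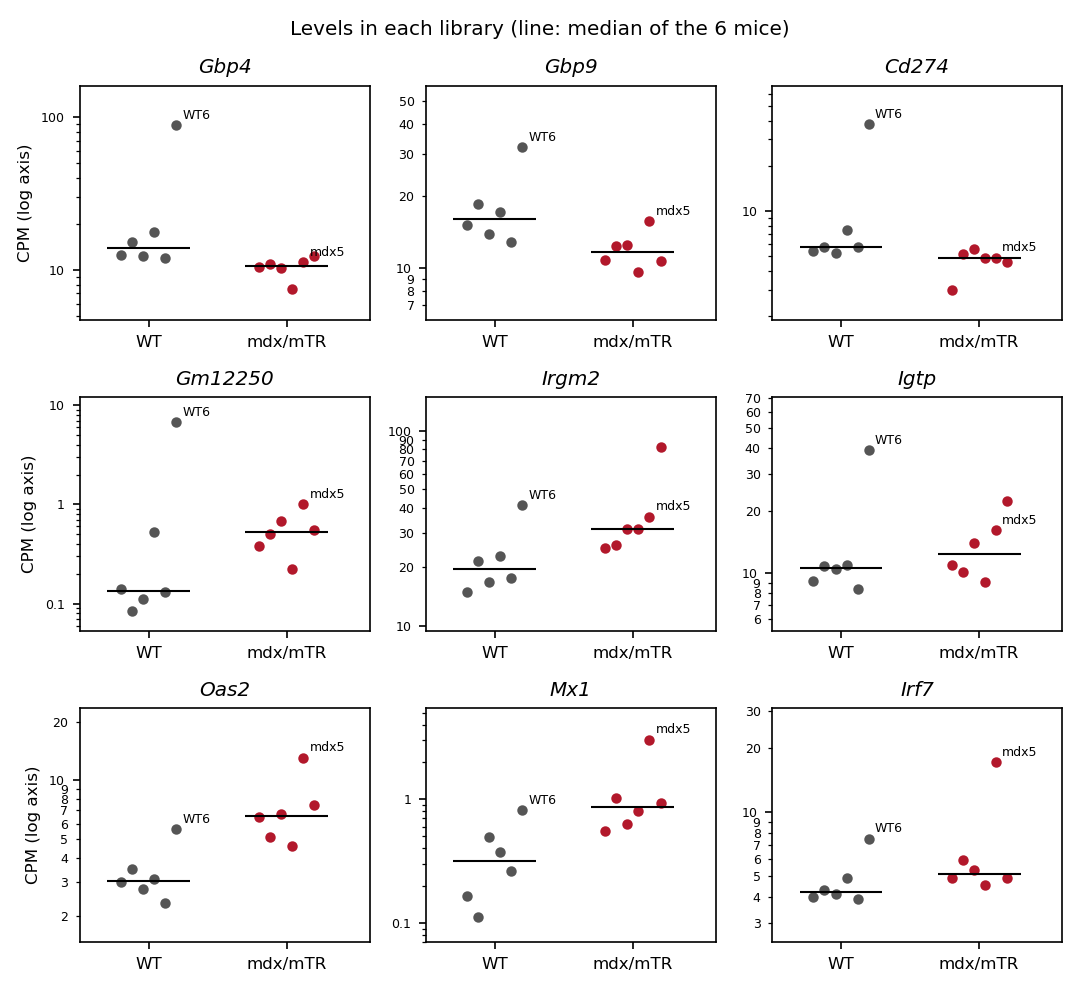
Levels (CPM, log axis) of 9 interferon-induced genes in the WT and mdx/mTR libraries; each point is a library, the line is the group's median, and WT6 and mdx/mTR5 are marked. WT6 is the highest of all 12 libraries for Gbp4, Gbp9, Cd274, Gm12250 and Igtp, whereas mdx/mTR5 is highest for Oas2, Mx1 and Irf7.

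The other 7 antiviral effectors did not pass in either edgeR fit, but other settings called some of them. Without WT6, DESeq2 called Oasl2 (adjusted p 0.0245) and Bst2 (adjusted p 0.0366) as higher, and edgeR with library totals alone called Ifit2, Oasl2 and Bst2 as higher, beside 38.0% of all genes. With mdx/mTR5 also left out, Oasl2 passed in edgeR (0.36, adjusted p 0.0483). Ifit1, Ifit2 and Ifit3, which bind viral RNA and translation factors, had log2 fold changes of -0.03, 0.19 and -0.08 across all 12 libraries. Their mdx/mTR values were highest in mdx/mTR5, at 4.98, 9.11 and 4.62 CPM, and at most 2.54, 6.64 and 2.77 CPM in the other 5 libraries. Oasl2 was at 3.24 to 4.77 CPM in WT1 to WT5, 8.51 CPM in WT6 and 4.13, 5.35 and 14.3 CPM in mdx/mTR (0.49 ± 0.31, adjusted p 0.217; without WT6 0.74 ± 0.29, adjusted p 0.0565). Bst2, which tethers budding virions, reached 20.5 CPM in WT6 and 19.6 CPM in mdx/mTR5, against 6.89 to 10.5 CPM in WT1 to WT5 (0.19, adjusted p 0.592). Rsad2, the antiviral enzyme viperin, had -0.50 ± 0.23 (adjusted p 0.0887, and 0.0452 without WT5), and Mx2 had 0.34 (adjusted p 0.253). Rsad2 was at 24.2 CPM in WT6 and 7.79 to 14.1 CPM in the other 11 libraries, and Mx2 at 0.391 to 0.750 CPM in WT and 0.449 to 1.11 CPM in mdx/mTR.

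The RNA sensors Ifih1 (MDA5) and Ddx58 (RIG-I) had log2 fold changes of 0.12 and 0.24, and Isg15, a ubiquitin-like modifier, and Usp18, which removes it, had 0.31 and -0.02. Ifih1 was at 6.52 to 8.92 CPM in WT and 6.48 to 11.5 CPM in mdx/mTR, and Ddx58 at 5.61 to 8.595 CPM in WT and 7.03 to 11.7 CPM in mdx/mTR. Usp18 was at 1.93 to 3.04 CPM in WT and 1.57 to 4.09 CPM in mdx/mTR, and all 3 genes were highest in mdx/mTR5. None of these 4 passed in edgeR, DESeq2 or limma-voom, with or without WT6, and 0 of them had an unadjusted p below 0.05 in the 2 edgeR fits. In edgeR with WT6 left out and library totals alone, 1 RNA sensor, Ddx58, had an unadjusted p below 0.05 (0.45, adjusted p 0.0664). Isg15 was at 0.992 to 1.95 CPM in WT1 to WT5, 2.54 CPM in WT6 and 0.981, 1.42 and 3.56 CPM in mdx/mTR. All of these libraries except mdx/mTR5 lay at or below WT6. Of the remaining 5 genes, Cd274 fell when WT6 was included. It was at 5.24 to 7.48 CPM in WT1 to WT5, 37.7 CPM in WT6 and 2.997, 4.90 and 5.60 CPM in mdx/mTR. Its log2 fold change was -1.26 ± 0.47 (adjusted p 0.0409) with WT6 and -0.34 ± 0.15 (adjusted p 0.0774) without it, and leaving out any 1 of the mdx/mTR libraries also ended the call. Rtp4, a chaperone of cell surface receptors, Ifi44, Ifi35 and Xaf1, a promoter of apoptosis, had 0.39, 0.07, 0.19 and 0.05 and did not pass in either edgeR fit. Rtp4 was called as higher without WT6 by DESeq2 (adjusted p 0.0379) and with library totals alone (adjusted p 0.0316), and Ifi35 with library totals alone in both fits (adjusted p 0.0225 and 0.0218). Rtp4 ranged over the 12 libraries from 2.14 to 6.77 CPM, Ifi44 from 1.14 to 2.87, Ifi35 from 9.54 to 17.02 and Xaf1 from 2.39 to 5.66.

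Per kilobase of exon, the most abundant of the 39 transcripts in WT1 to WT5 were Bst2 (9.31 CPM per kilobase), Ifi35 (6.78), Irgm2 (5.05) and Igtp (4.93), and the least abundant was Mx1 (0.0745). In WT6 the order was led by Bst2 (22.7 CPM per kilobase), Igtp (19.4), Gbp2 (13.7) and Gbp4 (11.9). In mdx/mTR the leading genes were Bst2 (13.2), Irgm2 (10.5), Ifi35 (7.89) and Igtp (6.79).

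Beyond the 39 genes, 42 other interferon-induced genes passed the filter, and 16 of them rose and 3 fell, beside 25.0% and 23.4% of all genes. The other 23 did not pass. The genes named next were picked by their values, from the largest rises and falls. Ifi204, a nuclear DNA-binding protein expressed by macrophages, was at 2.53, 3.35 and 4.73 CPM in WT and 7.34, 8.92 and 15.6 CPM in mdx/mTR without overlap (log2 fold change 1.52 ± 0.19, adjusted p 3.48e-05). Epsti1 rose by 1.54 ± 0.32 (adjusted p 0.00145). Oas3, of the family of Oas1a and Oas2, rose by 2.51 ± 0.74 (adjusted p 0.0127) from 0.0555 to 0.301 CPM in WT, with 3.68 CPM in mdx/mTR5 and a median of 0.413 CPM. It had 2 to 11 counts in the WT libraries, 173 in mdx/mTR5 and 14 to 34 in the rest of mdx/mTR. The groups overlapped in CPM. Ifit3b, a near copy of Ifit3, fell by 0.83 on the log2 scale (SE 0.16, adjusted p 0.00108). Over all 85 tested genes of the pathway outside the 39, 34 rose and 11 fell, beside 25.0% and 23.4% of all genes. Without WT6, 86 were tested, and 40 rose and 9 fell, beside 22.9% and 21.4% of all genes. With all 12 libraries and scaling by library totals alone, 45 rose and 5 fell, beside 40.1% and 11.2% of all genes.

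Markers of other cell types were read beside these results. WT6 was the highest WT library for 7 of 8 macrophage markers, with a sum of 152 CPM against 88.1 to 133 CPM. For 8 T cell markers the sum was 1.61 CPM in WT6, within the 1.08 to 2.26 CPM of WT1 to WT5, and 3.40 to 7.03 CPM in mdx/mTR. For 8 natural killer cell markers it was 0.574 CPM in WT6, 0.222 to 0.557 CPM in WT1 to WT5 and 1.45 to 3.96 CPM in mdx/mTR. The 5 neutrophil markers found summed to 1.59 CPM in WT6, 0.639 to 2.14 CPM in WT1 to WT5, 20.02 CPM in mdx/mTR5 and 1.95 to 3.90 CPM in the rest of mdx/mTR. Summed markers of dendritic cells were at 8.71 to 9.99 CPM in WT1 to WT5, 10.99 CPM in WT6 and 9.40 to 12.8 CPM in mdx/mTR, and those of B and plasma cells at 0.555 to 2.37 CPM, 1.59 CPM and 0.906 to 1.82 CPM. Endothelial markers summed to 513 to 647 CPM in WT1 to WT5, 542 CPM in WT6 and 399 to 508 CPM in mdx/mTR. The 5 muscle fibre markers summed to at least 92286 CPM in every library. No list had a marker at 0 in all 12 libraries. The part of these markers in the levels of the 39 genes was not tested.

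In the authors' deposited table, 5 of the 39 genes were higher in mdx/mTR and 3 lower at the same threshold. The authors' deposited table gives Irf8, Irf9, Mx1, Oas1a and Oas2 as higher (log2 fold changes 0.44, 0.42, 1.14, 1.17 and 0.98) and Gbp6, Gbp9 and Rsad2 as lower (-0.79, -0.58 and -0.46). DESeq2 run here on all 12 libraries gave values further from 0 for each of them, such as 1.63 for Mx1 and 1.52 for Oas1a. The deposited sizes are therefore not directly comparable with those above, and the reason was not tested. For 11 of the 39 the authors' deposited table gives no adjusted p: Gbp2, Gbp3, Gbp4, Gbp5, Iigp1, Ifi47, Tgtp1, Tgtp2, Gm12250, Cd274 and Irf7. Of these 11, 10 are among the 12 genes whose WT6 level was at least 2-fold above every other WT library.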

How the data were processed

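Counts per gene symbol were used as the authors deposited them; per the submitters' processing notes, FastQC, STAR, DESeq2 and mm10 were used, and the counter, annotation and strand handling are not given in the sources used here. Per the file headers, the authors' deposited comparison table gives a normalized signal averaged over libraries, log2 fold changes, a test score and p-values. No per-sample column was left unmatched (0).

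The counts were tested with edgeR 4.0.16 in R 4.3.3 (filterByExpr, TMM scaling, quasi-likelihood test with group as the only term, Benjamini-Hochberg adjustment over all genes tested, threshold 0.05). The standard error is the log2 fold change divided by the square root of F. CPM are on TMM-scaled library sizes, and levels per kilobase use the exon union length in GENCODE M21. Sequence sharing was read from GENCODE M21 transcripts. Alternatives were other scalings and filters, DESeq2 1.42.0, limma-voom (limma 3.58.1), a replicate block and each library left out. Leaving out WT6 and mdx/mTR5 together was added after seeing the data. On simulated counts for 13937 genes with 200 changed 2-fold, edgeR recovered 91.5% with 12 false calls, and 89.5% with 8 when WT6 was left out.

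Replicate pairs differed by more than sampling noise (chi-square per degree of freedom 9.10 to 128 over 30 pairs). The 39 genes, the pathway and marker lists and the tests were chosen with earlier results of these data known. All 39 genes are named. Other genes were chosen by role or, where said, by their values. Socs3 and the genes named as examples of nucleic acid sensing and of other tested interferon-induced genes were chosen by their values. They were among the largest rises and falls past the threshold in their lists. Ighm and Ly6g, on the marker lists, were not found by symbol. Python 3.11.15, pandas 2.3.3, numpy 2.4.6 and matplotlib 3.10.9 were used. The values of 1 pathway gene are not reported here.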

Additional observations from a re-analysis of the deposited data

Results flagged for a closer look

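In 34 of 78 sets of 6 values (39 genes in 2 groups), a library at the top of the set stood apart: its gap to the nearest other library was a larger share of the group's whole range than Dixon's critical value at 95%. Chance gives about 5% of such sets, or 3.9 of 78, if the genes varied independently, and these genes share libraries. WT6 was known to stand high in such genes when the 39 were chosen, so the count is a description and not a test.

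WT6 was the library standing apart in 24 of the sets. Its levels were 89.0 CPM for Gbp4, 34.4 for Gbp2, 33.1 for Gbp3, 22.4 for Gbp5, 6.70 for Gbp6, 50.8 for Gbp7 and 32.1 for Gbp9, so that all 7 guanylate-binding proteins were among the 24. All 8 immunity-related GTPases were as well, at 52.9 CPM for Iigp1, 39.2 for Igtp, 33.1 for Irgm1, 41.5 for Irgm2, 8.53 for Ifi47, 4.38 for Tgtp1, 4.70 for Tgtp2 and 6.73 for Gm12250. The transcription factors Stat2, Irf1 and Irf7 were at 23.5, 21.6 and 7.49 CPM. The other 6 were Cd274 at 37.7 CPM, Bst2 at 20.5, Oasl2 at 8.51, Ifit2 at 8.20, Oas2 at 5.61 and Ifi44 at 2.87.

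The library mdx/mTR5 stood apart in 9 sets, mostly antiviral effectors. Its levels were 17.2 CPM for Irf7, 5.18 for Ifi47, 4.98 for Ifit1, 4.62 for Ifit3, 3.02 for Mx1, 3.39 for Oas1a, 13.1 for Oas2, 14.3 for Oasl2 and 17.02 for Ifi35. The library mdx/mTR6 stood apart in Irgm2, at 82.6 CPM. Irf7, Irgm2, Ifi47, Oas2 and Oasl2 had a library standing apart in each group.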

How the results depend on the processing

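Across fits that left out 1 library, 3 to 9 of the 39 genes rose and 2 to 8 fell. Across all 12 libraries the number that fell was 2 with library totals alone, 3 with DESeq2, 2 with limma-voom and 3 with a replicate block, against 6 as reported. DESeq2 gave no adjusted p for Gbp2, Gbp3, Gbp4, Gbp5, Iigp1, Ifi47, Tgtp2, Gm12250 and Cd274. Of these, Gbp4, Gbp5 and Cd274 fell in edgeR. With WT6 left out, library totals alone gave 18 rises and 0 falls (1 fall at an unadjusted p below 0.05 in edgeR), beside 38.0% and 9.87% of all genes and an all-gene median of 0.18, DESeq2 13 and 4, and limma-voom 7 and 4, against 9 and 3. The shares of all genes that DESeq2, limma-voom and the replicate block called are not given here. Their counts are therefore not set against a background. The pathway genes outside the 39 had 5 falls with library totals alone, against 11. Leaving out 1 library and the other settings not named changed none of the remaining counts by more than 1.5 times. The cause of these differences was not tested.

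Several values near 0 changed sign. With library totals alone, which moved the median of all genes from 0.01 to 0.17, above each value listed, the log2 fold changes were 0.033 for Igtp, 0.076 for Irgm1, 0.13 for Ifi47, 0.15 for Ifit1, 0.087 for Ifit3, 0.15 for Usp18 and 0.012 for Pias4, and with upper quartile scaling 0.015 for Ifit1 and 0.023 for Usp18. With limma-voom they were 0.069 for Igtp, 0.22 for Ifi47 and 0.69 for Gm12250. With WT6 and mdx/mTR5 left out they were 0.18 for Iigp1, 0.41 for Igtp, 0.052 for Irgm1, 0.43 for Ifi47, 0.083 for Tgtp2 and 1.21 for Gm12250. Over the fits that left out 1 library, the log2 fold changes ran from -0.69 to 0.062 for Gbp2, -0.96 to 0.037 for Gbp3, -0.73 to 0.23 for Iigp1, -0.31 to 0.46 for Igtp, -0.12 to 0.078 for Irgm1, -0.32 to 0.72 for Ifi47, -1.16 to 0.065 for Tgtp2 and -1.46 to 1.45 for Gm12250. They ran from -0.31 to 0.14 for Ifit1, -0.30 to 0.20 for Ifit3, -0.21 to 0.086 for Usp18, -0.062 to 0.23 for Irf1, -0.014 to 0.50 for Bst2, -0.076 to 0.29 for Ifi44 and -0.10 to 0.15 for Xaf1.

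The replicate numbers did not pair the libraries throughout. Same-numbered libraries had correlations of their deviations from -0.15 to 0.35, above 0.1 for 2 of 6 numbers. In 2 of 6 cases, numbers 1 and 2, the library matched its own number best, and a pairing of those numbers alone was not tested. With the numbers as a block, 5 of the 39 genes rose and 3 fell, and the log2 fold changes of Igtp, Ifi47 and Gm12250 were 0.056, 0.20 and 0.30. Depth limits Gm12250, Tgtp1, Mx1, Mx2 and Oas1a, each with fewer than 30 counts in every one of WT1 to WT5, and Ifng, with 9 counts in all. Outside the 39, Oas3 and Mb21d1, among others, also had fewer than 30 counts in every one of WT1 to WT5.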

Other observations

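Genes outside the 39 that stood at least 2-fold higher in WT6 than in any other WT library are given here after their values were seen, with no test of what they share. Tap1, a subunit of the peptide transporter of MHC class I, was at 24.0 CPM in WT6, 4.50 to 6.76 CPM in WT1 to WT5 and 5.46 to 12.4 CPM in mdx/mTR. Nlrc5, the transactivator of MHC class I genes, was at 16.2 CPM against 2.39 to 4.30 CPM in WT1 to WT5. The immunoproteasome subunits Psmb8 and Psmb9 were at 13.3 and 7.66 CPM, above the highest other WT values of 5.08 and 3.53 CPM. Batf2, a transcription factor of macrophage activation, was at 1.72 CPM against at most 0.335 CPM, and Zbp1, a sensor of Z-form nucleic acid that triggers cell death, was at 2.71 CPM against 0.0833 to 0.345 CPM. The same set held genes known from macrophages and other myeloid cells, among them Clec4d, Ccl7, Fcgr1, Fcgr4, Cx3cr1 and Cd300lf. Of these, Fcgr1 was at 1.67 CPM in WT6, 0.361 to 0.810 CPM in WT1 to WT5 and 1.76 to 12.2 CPM in mdx/mTR. For Zbp1 the mdx/mTR libraries ran from 0.449 to 3.81 CPM, all above WT1 to WT5, and its log2 fold change went from 0.94 (edgeR adjusted p 0.302) with WT6 to 2.31 ± 0.60 (adjusted p 0.00759) without it. Psmb8 likewise went from 0.10 (adjusted p 0.803) to 0.50 (adjusted p 0.0358), whereas Tap1 (0.43, adjusted p 0.103) and Nlrc5 (0.49, adjusted p 0.0871) did not pass without WT6.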
